A study of Caenorhabditis elegans with 6 samples.

Results

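The genes described here are the MATH and BTB-MATH domain genes of Caenorhabditis elegans. They were taken as every gene whose symbol in the platform's probe-to-gene table is math or bath followed by a number. There were 85 of them among 17118 genes on the array, 47 with a math name and 38 with a bath name, measured by 91 of the 22548 probe sets tested. A gene with several probe sets was represented by the one whose 6-array mean was highest. RefSeq lists 92 such symbols, and 7 of them had no probe set assigned to them alone. It classes 66 of the genes measured as protein-coding and 19 as pseudogenes.

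The study compared worms that had lived in space with worms kept on the ground. Both groups were the wild-type strain CC1, cultured in the chemically defined C. elegans maintenance medium (CeMM). The space condition worms passed through several generations of mixed, unsynchronised stages on the International Space Station, exposed to radiation and microgravity, and were moved automatically into fresh medium. The ground control worms were passaged in parallel. Total RNA of each group was hybridised to 3 Affymetrix arrays, labelled as technical replicates, so the p-values below measure only the spread between these arrays and not the spread between cultures, and the number of arrays limits the precision of every value.

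The MATH domain, named after meprin and TRAF proteins, is a fold that binds short stretches of other proteins. In BTB-MATH (bath) proteins it is joined to a BTB domain, which docks onto the scaffold cullin 3 (CUL-3), so that the protein bound by the MATH domain is brought to a ubiquitin ligase and can be marked for destruction. Nematodes carry large expansions of both kinds of gene, many of them side by side in the genome, and most have no known substrate. The best understood relative of these genes, which carries no bath number, is MEL-26, a BTB-MATH protein that removes the microtubule-severing enzyme katanin after meiosis in the early embryo.

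The deposited values are linear intensities. Fold changes are given as space condition over ground control on the scale log2(intensity + 16), with their standard error, and a gene rose or fell if its adjusted p in limma was under 0.05 and the change on that scale was at least 2-fold. Array medians lay between 102.5 and 128.1, and correlations between arrays were 0.9597 to 0.9764 within groups and 0.9264 to 0.9522 between them. Background was judged from 8 control probe sets whose targets are absent from worms, which reached 86.7 at most, with a median of 6.48. The log2 ratio of the 5′ to the 3′ actin probe set, a sign of RNA integrity, was -3.12 ± 0.164 in the space condition and -3.97 ± 0.358 in the ground control (SD, n = 3), without overlap between the groups. The same ratio for Gapdh overlapped, at -1.50 ± 0.561 and -2.13 ± 1.41. Of all genes, 914 rose and 415 fell, so that 68.8% of the calls were upward, against 57.5% after quantile normalization.

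Of the 85 MATH and BTB-MATH genes, 7 rose (8.24%) and 1 fell (1.18%), beside 5.34% and 2.42% of all genes. The genes that rose were bath-1, bath-2, bath-5, bath-7, bath-19, bath-24 and math-34, and the gene that fell was math-13. The calls were unequally spread between the names, with 6 rises and no fall among the 38 bath genes and 1 rise and 1 fall among the 47 math genes. A further 2 genes passed the adjusted p without reaching 2-fold, math-38 with the higher level in the space condition and bath-33 with the higher level in the ground control. Over all genes 6.53% passed the adjusted p upward and 3.12% downward, and among the members 8 and 2 did.

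The median log2 fold change was 0.18 over the members, with quartiles of -0.19 and 0.65, and -0.02 over all genes, with quartiles of -0.35 and 0.38. It was 0.41 for the bath genes and 0.08 for the math genes. All 3 space condition arrays lay above all 3 ground control arrays for 22 members (25.9%), beside 17.6% of all genes, and below them for 8 (9.41%), beside 13.8%. The bath genes ranged from -0.96 to 1.66 and the math genes from -1.06 to 1.08. The number of members called was 4, 3 and 4 without space condition array 1, 2 or 3, and 5, 5 and 8 without ground control array 1, 2 or 3. Of the 8 called without ground control array 3, 4 were among those named above, and bath-4, bath-8, bath-14 and bath-20 were called in place of bath-1, bath-24, math-13 and math-34. Of these additions bath-8 was a fall and the others were rises. It read 2.26, 9.05 and 2.88 in the space condition and 31.1 and 43.7 on ground control arrays 1 and 2, all below the brightest absent-sequence control. With a covariate for RNA integrity, taken from the actin and Gapdh controls, 6 were called, of which bath-2, bath-5, bath-7 and bath-19 were the 4 shared ones and bath-20 and bath-29 were added. Under that covariate bath-1, bath-24, math-13 and math-34 lost their calls.

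**Figure D1:**
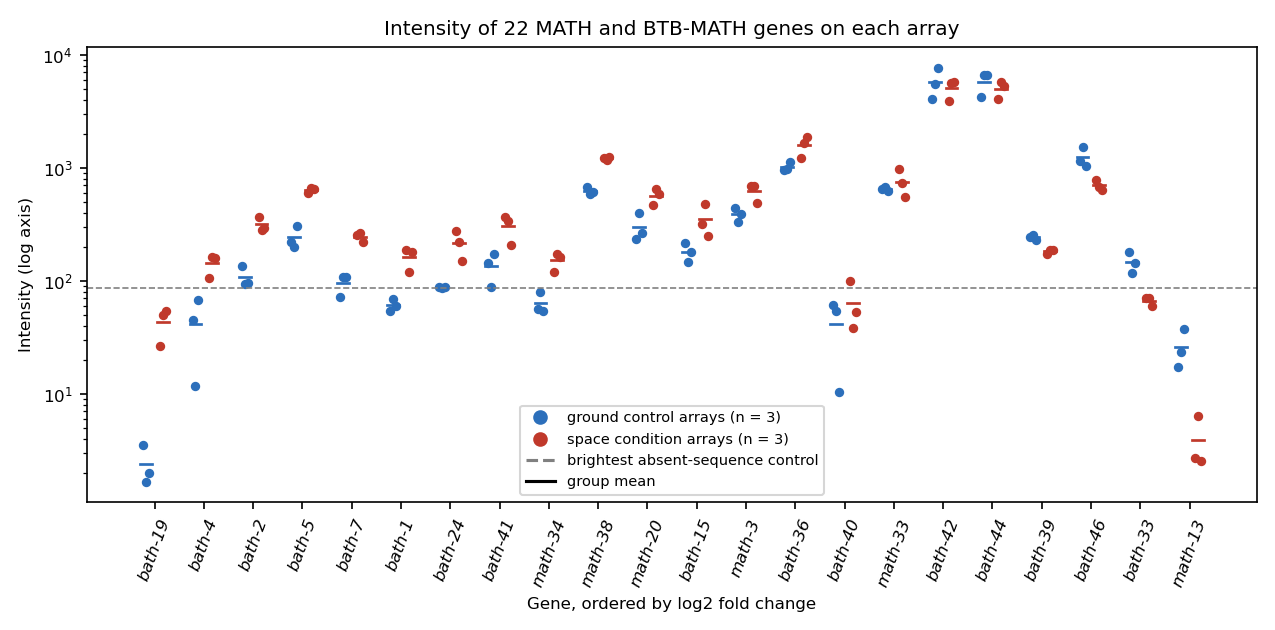
Intensity on each of the 6 arrays (log axis) for 22 MATH and BTB-MATH genes, ordered by log2 fold change, with ground control arrays in blue, space condition arrays in red, group means as short lines and the brightest absent-sequence control at 86.7 as a dashed line. The groups are apart for bath-19, bath-2, bath-5, bath-7, bath-1 and bath-24 and overlap for bath-40, math-33, bath-42 and bath-44.

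The clearest group of rises lay in a row of neighbours that runs in RefSeq from bath-1 to bath-14. This row, 1 of 11 in RefSeq, was delimited with the values known, by allowing at most 2 other genes between one member and the next. It holds 8 members, of which bath-1, bath-5, bath-19 and bath-24 rose and none fell, beside 5.34% and 2.42% of all genes. Of the 8 members, 7 had a positive fold change, as had 8335 of all 17118 genes, and the median log2 fold change was 1.14. None of these proteins has a substrate named here, and each is described by its level alone.

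In that row bath-5 had intensities of 594, 663 and 644 on the space condition arrays and 219, 199 and 305 on the ground control arrays. Every space condition array lay above every ground control array, and the means were 634 ± 35.8 and 241 ± 56.4 (SD, n = 3). The log2 fold change was 1.36 ± 0.23 (limma, adjusted p = 0.0132), and without space condition array 2 or 3 the adjusted p was 0.0607 or 0.057. The neighbouring bath-1 read 185, 118 and 179 in the space condition and 54.4, 68.4 and 60.2 in the ground control. Its groups did not overlap, and the ground control values all lay below the brightest absent-sequence control. The log2 fold change was 1.18 ± 0.23 (adjusted p = 0.0236), and it was 0.83 with a pseudocount of 64, short of 2-fold, and 1.13 with the RNA integrity covariate (adjusted p = 0.0744). The call on bath-1 held without space condition array 2 and was lost without any other array, with adjusted p from 0.0552 to 0.0912.

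For bath-24 the space condition arrays read 273, 222 and 148 and the ground control arrays 87.2, 86.9 and 87.3. The ground control values were nearly identical and stood at the brightness of the brightest absent-sequence control, while the space condition values spread widely above them. Its log2 fold change of 1.12 ± 0.25 (limma, adjusted p = 0.0344) passed the threshold without space condition array 3 and not without any of the other arrays, where the adjusted p was 0.0785 to 0.115. With the RNA integrity covariate the adjusted p of bath-24 was 0.1. A dimmer gene of the same row, bath-19, read 26.6, 49.6 and 53.5 in the space condition and 3.49, 1.67 and 1.98 in the ground control. Its fitted log2 fold change was 1.66 ± 0.25 (adjusted p = 0.0092), and it kept its call whichever array was left out. All 6 of its values lay below the brightest absent-sequence control, and its log2 fold change was 3.69 with a pseudocount of 1 and 0.68 with a pseudocount of 64.

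The other members of the row did not pass the test on all arrays and are named after their values were seen. For bath-20 the space condition values of 53.9, 83.9 and 67.2 overlapped the ground control values of 8.53, 14.7 and 54 by a narrow margin, with a log2 fold change of 1.15 ± 0.39 (limma, adjusted p = 0.114). The values were 0.45 ± 0.29 for bath-3 and 0.72 ± 0.44 for the pseudogene bath-14. The sole math gene of the row, math-1, was the only 1 of the 8 with a negative value, at -0.37 ± 0.30, and its intensities of 1.98 to 21.3 were near background. Between these genes lies btb-3, which carries a BTB name and is classed as a pseudogene, with a log2 fold change of 1.14 ± 0.39 (adjusted p = 0.119).

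**Figure D2:**
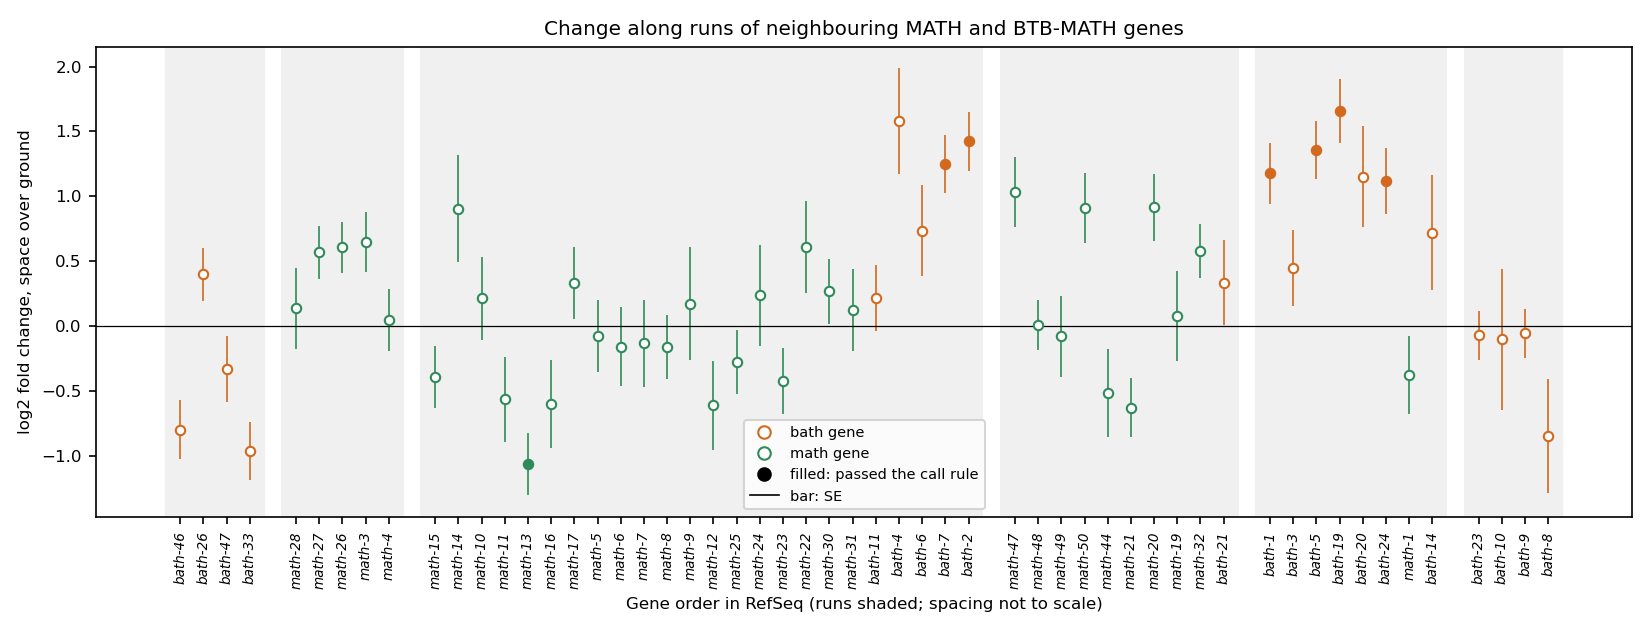
Log2 fold change of the members (space over ground, bars show the standard error) along the runs of neighbouring genes that have 4 or more members on the array, in RefSeq order and not to scale, with bath genes in orange, math genes in green and genes that passed the call rule filled. The rises lie in the row from bath-1 to bath-14 and at the right-hand end of the longest row, where bath-7 and bath-2 reached 1.25 and 1.42.

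The longest row of neighbours, from math-15 to bath-2, holds 24 members, of which 2 rose and 1 fell, beside 5.34% and 2.42% of all genes. Its median log2 fold change was 0.15. At the first end of the row, 13 math genes from math-15 to math-12 follow each other in RefSeq with no other gene between them. Their means over the 6 arrays were 5.03 to 81.9, all below the brightest absent-sequence control. Beside the same shares of all genes they had 0 rises and 1 fall, with a median change of -0.16 on the log2 scale. The fall was math-13, which read 2.7, 6.35 and 2.51 in the space condition and 17.3, 23.4 and 37.4 in the ground control. The groups did not overlap, and the log2 fold change was -1.06 ± 0.24 (limma, adjusted p = 0.036), but the call on this dim gene held without ground control array 1 and was lost without any other array, where the adjusted p was 0.0832 to 0.12.

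Between the ends of the row lies math-25, at -0.28 ± 0.25. At the other end, 10 neighbours from math-24 to bath-2 had means of 9.65 to 211, 4 of them above the brightest absent-sequence control. Their median log2 fold change was 0.44, 9 of the 10 were positive, and the difference between the ends was not tested. The outermost, bath-2, read 367, 284 and 294 in the space condition and 134, 93.7 and 95.9 in the ground control. All its values were above the brightest absent-sequence control and the groups were far apart, with a log2 fold change of 1.42 ± 0.23 (limma, adjusted p = 0.0115). The call on bath-2 held whichever array was left out. Its neighbour bath-7 read 253, 265 and 219.9 against 71.8, 107 and 107, again without overlap. The log2 fold change was 1.25 ± 0.23 (adjusted p = 0.0174), and without space condition array 1, 2 or 3 the adjusted p was 0.0559 to 0.0735.

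Close by, bath-4 read 105, 162 and 158 in the space condition and 44.8, 11.7 and 68 in the ground control. The groups did not overlap, but the ground control values were spread over a wide range, and the log2 fold change of 1.58 ± 0.41 missed the threshold (limma, adjusted p = 0.0515). Without ground control array 3 the adjusted p was 0.0416. The pseudogene bath-6, between bath-4 and bath-7 and named after its values were seen, overlapped between groups with a log2 fold change of 0.74 ± 0.35. Members in rows of neighbours numbered 65, with 6 rises and 1 fall, and the 20 members outside such rows had 1 rise and 0 falls. Over all genes 5.34% rose and 2.42% fell. The groups were apart with the space condition higher for 16 members in rows and 6 outside them, beside 17.6% of all genes. They were apart with the ground control higher for 7 and 1, beside 13.8%.

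Several bath genes outside these rows had the groups apart without passing the test. The gene bath-41 read 368, 338 and 206 in the space condition and 143, 88.1 and 171 in the ground control, without overlap, and missed the threshold at 1.10 ± 0.31 (limma, adjusted p = 0.07). The name of its probe set marks probes shared with other sequences. For bath-15 the values were 320.2, 481 and 247 against 217, 145 and 178. Its groups were separated by a small gap and its log2 fold change was 0.86 ± 0.29 (adjusted p = 0.109). For bath-36 they were 1217, 1668 and 1871 against 953, 974 and 1123, with a log2 fold change of 0.61 ± 0.23 (adjusted p = 0.151).

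A few bath genes read lower in the space condition. The values of bath-33 were 70.1, 70 and 59.8 in the space condition and 178, 117 and 144 in the ground control, a log2 fold change of -0.96 ± 0.22 (limma, adjusted p = 0.0375). The groups did not overlap and the change was just short of 2-fold. The adjusted p of bath-33 was 0.0526 to 0.128 with any 1 of the 6 arrays left out, 0.057 after quantile normalization and 0.0528 after median centring. In the same row of 4 neighbours bath-46 read 779, 674 and 639 against 1149, 1526 and 1028, with -0.79 ± 0.23 (adjusted p = 0.0719). Here too every space condition array lay below every ground control array. In that row, which runs from bath-46 to bath-33, 0 genes were called and 2 were lower at an unadjusted p under 0.05, beside 10.5% of all genes, and the median log2 fold change was -0.56. The row was not uniform. Its member bath-26 had every space condition array above every ground control array, at 0.40 ± 0.21 (adjusted p = 0.284). For bath-47 the groups overlapped, at -0.33 ± 0.25. Both are named after their values were seen. Outside the rows bath-39 read 172, 188 and 188 against 245, 255 and 229, with -0.38 ± 0.19 (adjusted p = 0.268).

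On their brightest probe sets the brightest bath genes showed no separation between the groups. For bath-42 the space condition arrays read 3868, 5576 and 5695 and the ground control arrays 4036, 5559 and 7671, with a log2 fold change of -0.16 ± 0.30 (limma, adjusted p = 0.796). For bath-44 they read 4039, 5726 and 5266 against 4202, 6556 and 6548, with -0.19 ± 0.26 (adjusted p = 0.725). In both genes the arrays of the groups interleaved, and without space condition array 1 or ground control array 3 the value of bath-42 was 0.019 or 0.069. The dim bath-40 read 99.5, 37.8 and 53 against 60.9, 53.4 and 10.4, also interleaved, with 0.54 ± 0.46 (adjusted p = 0.538). The gene bath-43 had no probe set of its own and was not analysed here.

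Among the math genes only math-34 rose. It read 120.4, 171 and 163 in the space condition and 56.6, 79.6 and 54.2 in the ground control. The groups did not overlap, and the log2 fold change was 1.08 ± 0.23 (limma, adjusted p = 0.031). The name of this probe set marks probes shared with other sequences, and a second, unmarked probe set for math-34 had a log2 fold change of 0.41 ± 0.29 (adjusted p = 0.445). The call was lost without space condition array 2 or 3 or ground control array 1 or 3, with adjusted p from 0.0793 to 0.114.

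A brighter gene, math-38, had 1211, 1168 and 1249 in the space condition and 669, 588 and 610 in the ground control. The arrays of each group were close together and the groups were far apart, and the log2 fold change of 0.94 ± 0.19 (limma, adjusted p = 0.0247) fell just short of 2-fold. With any 1 of the 6 arrays left out its adjusted p was 0.0511 to 0.0946. For math-20 the values were 469.9, 642 and 589.8 against 235, 397 and 263, without overlap, with 0.92 ± 0.26 (adjusted p = 0.0692). It belongs to a row of 10 members from math-47 to bath-21, with 0 calls, a median log2 fold change of 0.21 and a range of -0.63 to 1.03. In that row 4 members were higher and 1 was lower at an unadjusted p under 0.05, a level that 15.1% of all genes passed upward and 10.5% downward. Among those 4, math-20, math-47 and math-50 rested on probe sets marked as holding probes shared with other sequences.

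The row from math-28 to math-4 holds 5 members with 0 calls, 3 of them higher at an unadjusted p under 0.05, beside 15.1% of all genes. All 5 had a positive value, with a median of 0.57 on the log2 scale. In it math-3 read 686, 684 and 483 in the space condition and 439, 329.8 and 388 in the ground control, a log2 fold change of 0.65 ± 0.23 (limma, adjusted p = 0.134). Its neighbours math-26 and math-27, named after their values were seen, gave 0.61 ± 0.19 (adjusted p = 0.0967) and 0.57 ± 0.20 (adjusted p = 0.131). In all 3 the groups were apart without passing the test. The probe sets of math-3, math-4, math-26 and math-27 are all marked as holding probes shared with other sequences, and whether these neighbours share them with each other was not tested.

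The math gene with the best known relative is math-33, the worm counterpart of the deubiquitinase USP7, which removes ubiquitin from proteins rather than adding it. It read 973, 733 and 549 in the space condition and 644, 669.8 and 627 in the ground control. The space condition arrays lay on both sides of the tight ground control values, and the log2 fold change was 0.18 ± 0.25 (limma, adjusted p = 0.732). Without space condition array 1 it was -0.026.

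Level on the array and change are set side by side in the plot of mean intensity and fold change. The mean over the 6 arrays exceeded the brightest absent-sequence control for 31 members, of which 6 rose, 0 fell and 23 were positive, with a median log2 fold change of 0.57. For the other 54 members 1 rose, 1 fell and 29 were positive, with a median of 0.08. The pseudocount pulls the values of dim genes towards 0, and a rise itself lifts the mean of a gene, as in bath-1 and math-34, whose ground control means lay below that control, so these figures differ partly by construction. Both group means lay above it for 25 members, of which 4 rose and 0 fell. Brighter genes rose more often in general. With the test limited to probe sets with a mean of at least 64, 8.9% of all genes rose, beside 5.34% in the main fit. The share of all genes above the control that rose was not counted. Among the 19 pseudogenes 0 were called and 5 were higher at an unadjusted p under 0.05, beside 15.1% of all genes. Their median log2 fold change was 0.31, and the groups were apart with the space condition higher in 4 and the ground control higher in 2, beside 17.6% and 13.8% of all genes. The brightest of them was math-27, at 2885, 2890.4 and 2466 in the space condition and 1776, 1685 and 2081 in the ground control.

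**Figure D3:**
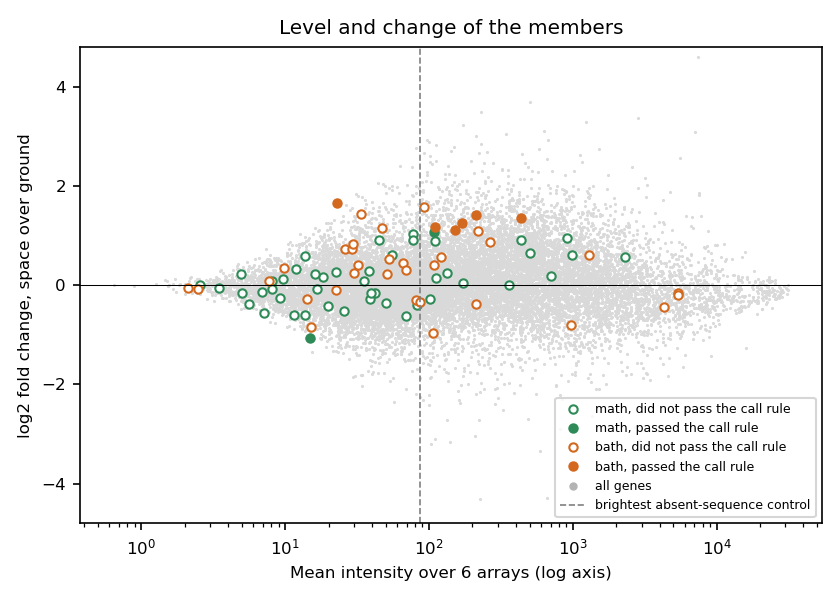
Log2 fold change (space over ground) against the mean intensity over the 6 arrays (log axis) for all genes in grey, math genes in green and bath genes in orange, with genes that passed the call rule filled and the brightest absent-sequence control at 86.7 as a dashed line. Of the 8 called members, 6 lie to the right of the line, and bath-19 and math-13 lie to its left.

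**Figure D4:**
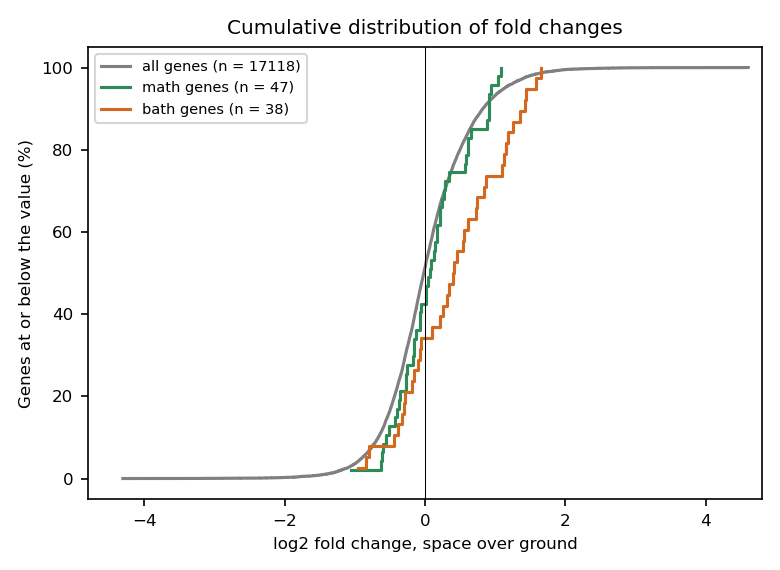
Share of genes (%) at or below each log2 fold change (space over ground) for all 17118 genes in grey, the 47 math genes in green and the 38 bath genes in orange. The curve of the math genes lies near that of all genes, with medians of 0.08 and -0.02, and the curve of the bath genes lies to the right of both, with a median of 0.41.

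For 6 members a second probe set was present. For bath-26 the dimmer one had 54.9, 55 and 52.6 in the space condition and 18, 27.1 and 26.6 in the ground control, with a log2 fold change of 0.82 ± 0.20 (limma, adjusted p = 0.0449), and the brighter one 0.40 ± 0.21 (adjusted p = 0.284). In bath-26 the groups were apart on both probe sets. The second probe sets of bath-42 and bath-44 gave 0.47 ± 0.24 and 0.74 ± 0.25, opposite in sign to the brighter ones, with adjusted p of 0.288 and 0.119. Those of bath-33 and math-37 gave -0.45 ± 0.38 and 0.26 ± 0.24, neither past the test. Of the 85 members, 17 rested on a probe set marked as holding shared probes, which may not tell near-identical genes apart.

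The other genes of the CUL-3 ubiquitin ligase system were measured on the same arrays. The 14 genes found of the 16 listed for the ligase core had 0 calls and a median log2 fold change of 0.45. They are cullin 3, RING genes, genes of the neddylation that activates cullin 3, the COP9 signalosome that resets it, and cand-1. At an unadjusted p under 0.05, 4 of them were higher and 1 was lower in the space condition, beside 15.1% and 10.5% of all genes. The scaffold gene cul-3 itself read 367, 307 and 280.5 in the space condition and 276, 289 and 176 in the ground control, overlapping, with 0.37 ± 0.25 (limma, adjusted p = 0.426). The gene csn-3, a COP9 subunit named after its values were seen, passed the adjusted p at 0.81 ± 0.20 (adjusted p = 0.045) and was short of 2-fold. The RING gene rbx-1 gave -0.61 ± 0.23 (adjusted p = 0.151), the ubiquitin-like modifier ned-8 gave 0.54 ± 0.36 (adjusted p = 0.421), and csn-5, the COP9 subunit that cleaves it from cullins, gave 0.52 ± 0.24 (adjusted p = 0.223).

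Of 24 other genes for possible CUL-3 adaptors with a BTB domain, 3 rose (12.5%) and 1 fell (4.17%), beside 5.34% and 2.42% of all genes. At an unadjusted p under 0.05, 4 were higher and 5 were lower, beside 15.1% and 10.5% of all genes. The median log2 fold change was -0.13. The genes that rose were btb-20, btb-19 and btb-17. The first of these read 668, 538 and 473 in the space condition and 185, 108 and 116 in the ground control, with 1.94 ± 0.26 (limma, adjusted p = 0.00754). For btb-19 and btb-17 the log2 fold changes were 1.39 ± 0.21 (adjusted p = 0.00916) and 1.40 ± 0.22 (adjusted p = 0.0113), and without space condition array 2 the adjusted p of btb-17 was 0.0556. The probe set of btb-17 is marked as holding shared probes. The gene that fell, btb-14, read 77.4, 80.4 and 69.8 against 208, 199.7 and 218, with -1.29 ± 0.19 (adjusted p = 0.00916). In all 4 genes the groups were far apart.

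The best studied BTB-MATH adaptor, mel-26, lies outside the numbered names and is counted among those 24. It read 4289, 4859.5 and 4673 in the space condition and 4613, 6583 and 5245 in the ground control, overlapping, with a log2 fold change of -0.24 ± 0.22 (limma, adjusted p = 0.572). Its substrate is katanin, which severs microtubules in the meiotic spindle. The katanin catalytic subunit gene mei-1 read 675, 532 and 658 against 425, 333 and 250.1, with 0.88 ± 0.25 (adjusted p = 0.0696), and the groups were apart. The regulatory subunit gene mei-2 rose, with 280, 397 and 370.2 against 105, 164 and 95.5 and a log2 fold change of 1.43 ± 0.26 (adjusted p = 0.0181), on a probe set marked as shared. The call on mei-2 was lost without space condition array 2 or 3 or ground control array 1 or 3, with adjusted p from 0.0532 to 0.0744. The gene ppfr-1, a phosphatase regulatory subunit that acts on katanin in the early embryo, read 2107, 2989 and 2685 against 3898, 4617 and 4752, apart but not past the test at -0.78 ± 0.22 (adjusted p = 0.0717). The dimmest probe set of ppfr-1 had the opposite sign, at 0.25 (adjusted p = 0.725), and that of mel-26 was at 0.081 (adjusted p = 0.884).

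**Figure D5:**
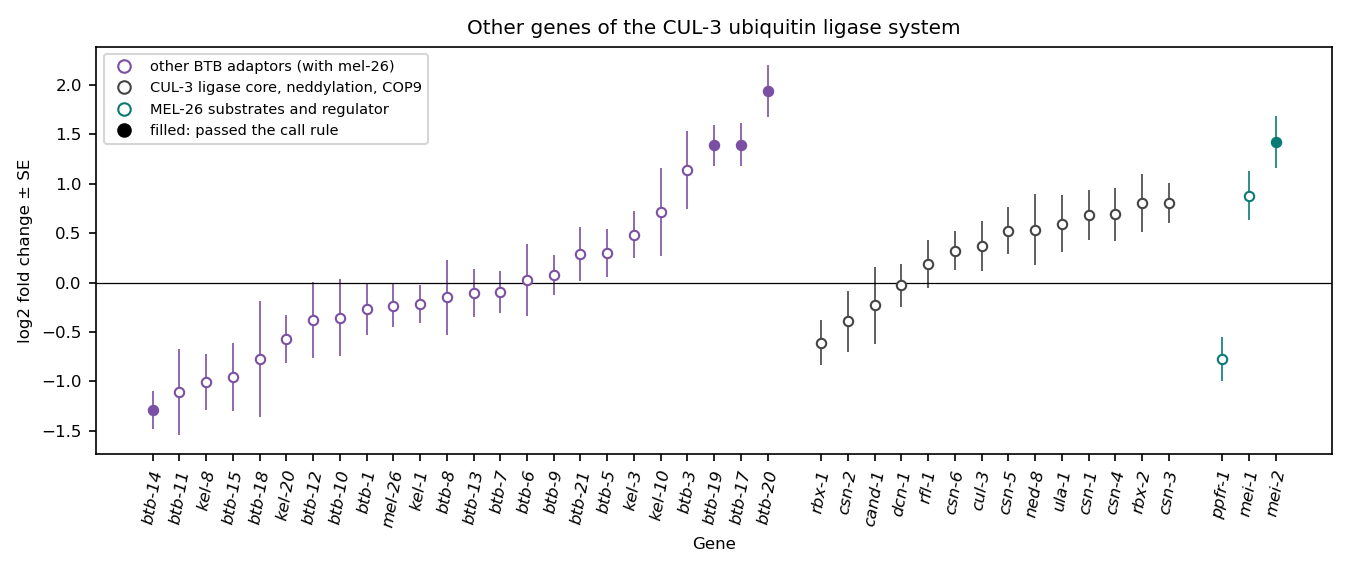
Log2 fold change (space over ground, bars show the standard error) of other genes of the CUL-3 system, with BTB adaptors in purple, ligase core genes in grey and MEL-26 substrates and regulator in teal, and genes that passed the call rule filled. The calls are btb-14 at -1.29, btb-19, btb-17 and btb-20 at 1.39 to 1.94, and mei-2 at 1.43.

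Markers of tissues were read beside these values, because whole cultures of mixed stages were measured and fewer cells of a type and less RNA per cell cannot be told apart. Over all genes 5.34% rose and 2.42% fell, and the calls of each list below stand beside these shares. Of 18 germline markers, 13 rose (72.2%) and 0 fell, with a median log2 fold change of 1.16. Their summed intensity was 16020 to 18397 on the space condition arrays and 7583 to 8135 on the ground control arrays. The germline count was 4, 4 and 5 without space condition array 1, 2 or 3, and 10, 6 and 9 without ground control array 1, 2 or 3. Of 8 sperm markers 2 rose (sums of 822 to 916 against 479 to 619), and of 7 muscle markers 1 rose (11136 to 13490 against 15955 to 18782). Of 6 embryo markers 2 rose and 1 fell (3621 to 4618 against 5281 to 7888). Although the embryo sum was lower in the space condition, 4 of the 6 embryo markers had a positive log2 fold change, with a median of 0.40. Of 10 hypodermis markers 3 fell (3074 to 4127 against 4290 to 5476), of 9 neuronal markers 1 fell (18877 to 20897 against 25178 to 28147), and of 9 intestine markers 0 were called and 2 were higher at an unadjusted p under 0.05, beside 15.1% of all genes (sums of 41396 to 50038 against 38787 to 53562). The hypodermis count was 1, 1 and 0 without space condition array 1, 2 or 3, and 1, 0 and 2 without ground control array 1, 2 or 3. No marker was at 0 on any array. The sums of all these lists except the intestine list did not overlap between the groups. They were higher in the space condition for the germline and sperm lists and lower for the muscle, embryo, hypodermis and neuronal lists. The part of these tissues in the results above was not tested.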

How the data were processed

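Total RNA was extracted with Trizol and biotin-labelled cRNA was hybridised to 6 Affymetrix arrays, per the labels' protocols. The authors deposited intensities on a linear scale. The methods of summarising, background correction and scaling are not given in the sources used here. Groups and replicate numbers came from the sample titles.

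The 77 array controls among the 22625 probe sets stayed out of the tests. Log2(intensity + 16) was tested with limma 3.58.1 in R 4.3.3 (lmFit, eBayes, group as the sole factor), with Benjamini-Hochberg adjustment over all 22548 probe sets. The fit was tested on simulated data. Figures used matplotlib 3.10.9 in Python 3.11.15.

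Symbols came from the platform annotation, in which 20766 tested probe sets had 1 symbol, 887 several and 895 none. All 85 member symbols were found in a RefSeq table of assembly WBcel235, used for names, gene class and neighbours. Each gene was represented by its probe set with the highest mean. No sequence is shown, since no genome or sequence table of these genes was used here.

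Genes were named if they were called, if they passed the adjusted p short of 2-fold, or if they were among at most 6 further members on each side with groups apart and a higher group mean above the median of 114.6 over all tested probe sets. A fixed list of members and CUL-3 pathway genes and the called genes of the pathway lists were also named. The members and lists were chosen with earlier results of these data known.

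Same-numbered arrays deviated from their group means with correlations of 0.39, 0.058 and 0.17 for replicates 1, 2 and 3, so the numbers were not taken to pair the arrays. The 19 alternatives covered pseudocount, scaling, dim and shared probe sets, choice of probe set, variance model, fold minimum, RNA integrity, replicate block and arrays left out.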

Additional observations from a re-analysis of the deposited data

Results flagged for a closer look

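A further 5 probe sets were assigned by the platform table to a pair of genes with at least 1 math or bath gene among them. They were left out of the comparisons because their signal cannot be given to 1 gene, and 4 of them were higher on every space condition array than on any ground control array. The first, assigned to bath-3 and bath-4, read 114, 175 and 171 in the space condition and 11.3, 29.7 and 16.7 in the ground control. Its log2 fold change was 2.28 (limma, adjusted p = 0.00602). The probe sets of bath-3 and bath-4 alone gave 0.45 and 1.58, and neither passed the rule in the main fit. The genes bath-29 and bath-30 shared 2 probe sets. On the brighter one the values were 754, 899 and 746 against 228, 227 and 264, with a log2 fold change of 1.67 (adjusted p = 0.00602). On the dimmer one they were 129, 112 and 139.9 against 39.5, 46.2 and 69.5, with 1.10 (adjusted p = 0.0295). The probe sets of bath-29 and bath-30 alone were dimmer still, with 6-array means of 29.5 and 30.2. They gave 0.83 and 0.25, and neither passed the rule in the main fit. The fourth, assigned to bath-27 and F14D2.15, read 661, 708 and 643 against 237, 304 and 281, with 1.25 (adjusted p = 0.0118). In RefSeq bath-27, bath-29 and bath-30 belong to the same row of neighbours, from bath-28 to bath-27. All 4 passed the rule used for the genes, and no explanation was tested. The fifth, assigned to math-47 and math-48, had a log2 fold change of -0.03 with values near background.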

How the results depend on the processing

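The 8 calls among the members became 2 with a pseudocount of 64 and 0 with a 1.5-fold minimum inside the test. They also became 0 without both space condition array 1 and ground control array 3, where 0 of all genes were called by limma although 3985 genes and 27 members had an unadjusted p under 0.05. Leaving out 1 array gave 3 to 8 calls among the members, 3 to 8 among the bath genes (6 in the report) and 0 to 1 among the math genes (2 in the report). Among the 8 bath calls without ground control array 3, that of bath-8 was a fall. The math count was 1 with a pseudocount of 1, 0 with 64, 1 when genes had to exceed the median of all probe sets in their higher group, 1 without marked probe sets, 1 with the lowest probe set, and 0 with the 1.5-fold minimum, the 5′ to 3′ covariate or both arrays left out. The bath count was 2 with a pseudocount of 64 and 0 with the 1.5-fold minimum or without both arrays. With the replicate number as a block the member count was 9, the bath count 6 and the math count 3, and the sole count moved by over 1.5 times was that of the hypodermis markers, 1 against 3.

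Without both arrays the counts were 0 for the other BTB adaptors, 0 for the MEL-26 genes, 0 for the germline markers and 0 for the hypodermis markers. The other BTB adaptors, 4 in the report, had 1 with the 1.5-fold minimum and 3 to 5 with 1 array left out. The MEL-26 genes, 1 in the report, had 0 without marked probe sets, with the 1.5-fold minimum or with the covariate, and 0 to 1 with 1 array left out. The germline markers, 13 in the report, had 6, 2 and 7 in those same settings and 4 to 10 with 1 array left out. The hypodermis markers, 3 in the report, had 1 with a pseudocount of 1, 0 with the 1.5-fold minimum, 1 with the covariate and 0 to 2 with 1 array left out. Over all genes the 1329 calls became 852 with a pseudocount of 1, 827 without marked probe sets, 184 with the 1.5-fold minimum and 496 to 970 with 1 array left out.

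The members' median log2 fold change of 0.18 was 0.095 with a pseudocount of 64, 0.50 over probe sets with a mean of at least 64 and 0.61 over those above the median in their higher group, filters that remove dim members by construction. It was 0.17 to 0.23 with 1 array left out. Upward calls were 61.6% of all calls after median centring.

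Signs turned for bath-40, bath-42, bath-44, math-33, mel-26 and ppfr-1, none of which had passed the test, and the -0.78 of ppfr-1 was not near 0. With the covariate bath-40 was -0.21, bath-42 was 0.25 and bath-44 was 0.10, and without both arrays they were -0.26, 0.25 and 0.065. Without both arrays math-33 was -0.048, and with 1 array left out it was -0.026 to 0.38 and bath-42 was -0.39 to 0.069. With the lowest probe set bath-42 was 0.47, bath-44 was 0.74, mel-26 was 0.081 and ppfr-1 was 0.25. Of the 8 called members each kept its direction in every setting that measured it. The call was lost in 2 of 19 settings for bath-2, 4 for bath-5, 6 for bath-7, 9 for bath-1, 10 for bath-24 and 11 for math-34, and in 3 of 17 for bath-19 and 9 of 17 for math-13. The cause of these changes was not tested.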

Other observations

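The control RNAs added before labelling gave brighter signals on the ground control arrays than on the space condition arrays. The 3′ probe sets were 1.63 times brighter for dap, 2.30 times for lys, 2.15 times for phe and 2.07 times for thr, in each case without overlap between the groups. The controls added at hybridisation were 1.53 times brighter for bioB, 1.41 times for bioC, 1.43 times for bioD and 1.41 times for cre, with overlap between the groups. The amounts added are not given in the sources used here, and no values were rescaled to these controls.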
